A study of Mus musculus with 7 samples.

Results

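The Hox genes encode homeodomain transcription factors and lie in 4 clusters, Hoxa, Hoxb, Hoxc and Hoxd. Members were the protein-coding genes of the mm10 annotation (GENCODE M21) named Hoxa, Hoxb, Hoxc or Hoxd with only a number after the letter. This rule gave 39 of 21938 protein-coding genes: 11 Hoxa, 10 Hoxb, 9 Hoxc and 9 Hoxd genes. The peaks taken were those touching a Hox gene body or the 5 kb on either side of one, 367 of the 647973 peaks in the 7 libraries together. Overlapping peaks of different libraries were merged, which gave 82 Hox regions of 145247 regions in all. On GRCm38 (mm10), Hoxa lies on chromosome 6 and is transcribed from the minus strand, Hoxb spans chr11:96194316-96368256, Hoxc spans chr15:102921103-103036852 and Hoxd spans chr2:74668310-74765142, the last 3 on the plus strand.

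Accessible chromatin was mapped by ATAC-seq, which sequences fragments from open DNA, in B-cell precursors sorted from mice as B220+ IgM- IgD- NK1.1- CD11c- cells and divided by further surface markers. WT cells carried floxed alleles of the ETS-family transcription factor gene Erg without Cre (Ergfl/fl) and were taken at the successive pre-proB, proB and preB stages. The Erg KO cells, taken at pre-proB, were Rag1CreT/+;Ergdelta/delta, where Rag1Cre deletes Erg in lymphoid cells from the common lymphoid progenitor onwards, so earlier progenitors had kept it. Rescue cells were Rag1CreT/+;Ergdelta/delta;IgHVH10tar, with an immunoglobulin heavy-chain allele that is already rearranged, at the 3 stages named in their titles. Each of the 7 groups was 1 library, so no spread between animals could be estimated and no test of a difference between groups was possible. For the 3 Rescue libraries the source name contradicted the title. The library titled pre-proB had proB as its source name, the one titled proB had preB, and the one titled preB had pre-proB. Stages below follow the titles. The peak lists cannot show whether the Erg exon was lost.

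The lists held 76465 to 105649 peaks. Each peak carries a fold, the number of fragments at its summit over the background of its library, and a percentile, its rank by −log10 q within its own list. For WT the background was 4.16 fragments at pre-proB, 4.42 at proB and 3.56 at preB, for Erg KO it was 4.46, and for Rescue 4.60, 3.49 and 3.85 at the same 3 stages. The weakest called peaks had 10 to 12 fragments at the summit, so a region without a peak can still hold up to that many. Of 10 B-lineage marker genes such as Cd79a and Ebf1, 9 or 10 had a promoter peak in the 3 WT, Rescue proB and Rescue preB libraries, 6 in the Erg KO library and 7 in Rescue pre-proB. Of 10 stem and progenitor markers 6 to 8 had one, of 10 myeloid markers 3 to 5 and of 10 megakaryocyte and erythroid markers 4 to 6, where 61.4% to 65.5% of all protein-coding genes did. Of 10 T-cell markers 6, 7 and 7 had one in WT, Erg KO and Rescue pre-proB and 3 to 6 in the later libraries, and of 10 plasmacytoid dendritic cell markers 10 in each pre-proB library and 8 or 9 in the later ones. Fewer cells of a type with open DNA at a place and less opening per cell cannot be told apart in these bulk libraries.

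Within a cluster the genes are numbered by kinship: genes of the same number in different clusters are paralogs. Low numbers lie at the 3' end and act in the head and neck of the embryo, high numbers lie at the 5' end and act in the trunk, limbs and genital tract, and genes are switched on in that order. Polycomb-group proteins keep Hox genes silent, Trithorax-group proteins keep them active, and the insulator protein CTCF binds between Hox genes. In blood, Hoxa and Hoxb genes of the 3' end and middle, with Hoxa9 and Hoxa10, are active in stem and progenitor cells and decline as cells mature, and overactive Hoxa9 with its cofactor Meis1 is a hallmark of acute leukaemia.

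The Hox clusters held many peaks, and those peaks were low. WT pre-proB had 45 Hox peaks, WT proB 68, WT preB 48, Erg KO pre-proB 48, Rescue pre-proB 49, Rescue proB 57 and Rescue preB 52. Per 100 kb of Hox window this was 9.96 to 15.1 peaks, against 2.81 to 3.88 per 100 kb of the genome in the same libraries. The windows are 451.685 kb in all. Peaks covered 5.73% to 8.60% of these bases and 1.95% to 2.60% of the genome. The windows are rich in genes and promoters, which the genome average is not, and what this contributes was not tested. The median fold of a Hox peak was between 4.98 (WT proB) and 6.71 (Rescue preB), and the median of the whole list was between 7.75 and 8.92. In every library the median Hox peak ranked below the middle of its list, at a percentile between 31.2 and 41.2.

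Hoxa held the most peaks, and Hoxb and Hoxc the fewest in every library except WT preB, where Hoxd had fewer still. Hoxa held 21, 25 and 27 peaks at the pre-proB, proB and preB stage of WT, 17 in Erg KO, and 18, 21 and 26 at the same stages of Rescue, together 155 of the 367. Wherever 7 values follow each other, they keep this order of libraries. Hoxd held 14, 21, 6, 14, 16, 18 and 10 peaks. Hoxc held between 5 (WT pre-proB) and 13 (WT proB), and Hoxb between 5 (WT pre-proB) and 9 (WT proB). Per 100 kb of window, the 7 libraries had 15.0 to 23.8 peaks in Hoxa, 5.86 to 20.5 in Hoxd, 4.17 to 10.8 in Hoxc and 4.31 to 7.76 in Hoxb. Hoxa was thus the densest cluster in all 7 libraries. Hoxb stayed within 5 to 9 peaks in every library, while the number in Hoxd in WT proB was more than 3 times that in WT preB.

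**Figure D1:**
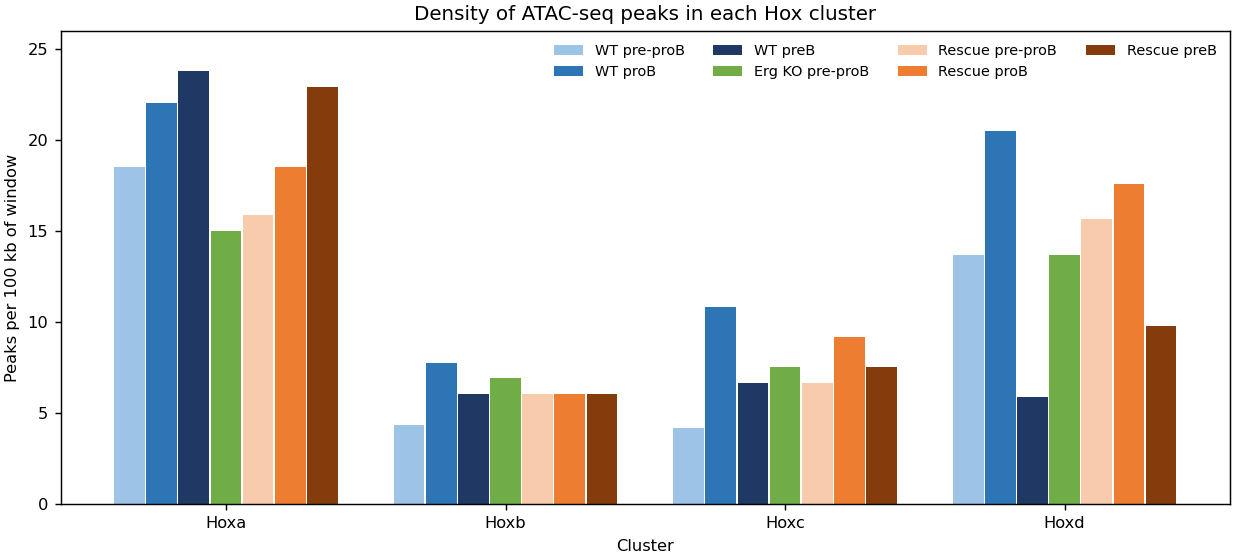
Peaks per 100 kb of window (y axis) in each of the 4 Hox clusters (x axis), 1 bar per library and no error bars because each group is 1 library. Hoxa bars stand between 15.0 and 23.8 and Hoxb bars between 4.31 and 7.76, and the Hoxd bar falls from 20.5 in WT proB to 5.86 in WT preB.

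**Figure D2:**
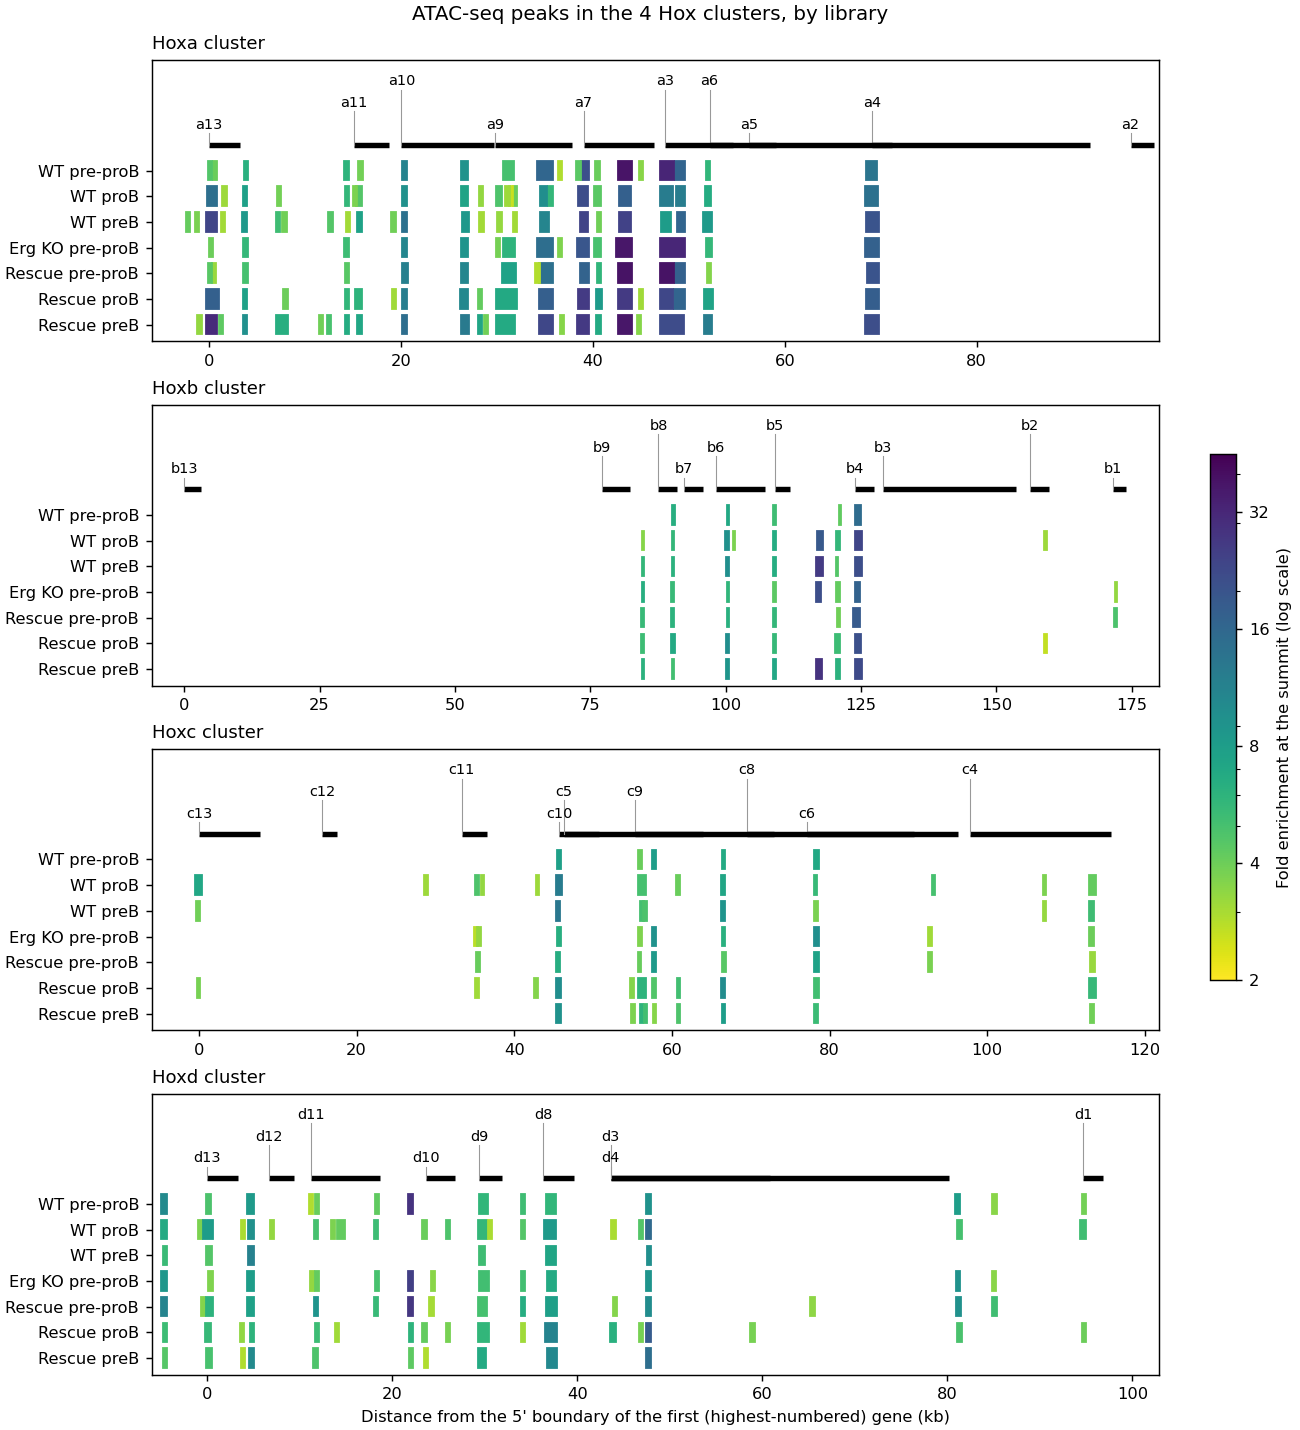
Hox peaks of each library (rows) along the 4 clusters, as distance in kb from the 5' boundary of the highest-numbered gene (x axis), with black bars for gene bodies, thin lines at the 5' boundary of each gene and colour for fold on a log scale. The 3' edge of Hoxa is not drawn. Hoxa carries strong peaks between a9 and a4, and in the proB and preB libraries also at a13. The peak between b5 and b4 is drawn only in the 4 libraries where it reaches into the window.

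The merged regions differed between clusters in the same way. Hoxa had 30 regions, 15 of them with a peak in all 7 libraries. Hoxb had 10 regions with 6 in all 7, Hoxc 16 with 4 and Hoxd 26 with 6. Of all 82 Hox regions, 31 had a peak in all 7 libraries, which is 37.8% against 32% of all regions, and 16 had a peak in 1 library (19.5% against 17.8%). Regions shared by all 7 were wide, with a median of 871 bp, and regions seen once had a median of 302.5 bp. The median over all Hox regions was 501.5 bp and over all regions of the genome 515 bp. By annotation of the summit base alone, 38 of the 82 had it in an exon, 26 in an intron and 18 between genes. A region with its summit between genes can still reach into a gene. Of the 82 regions, 36 came within 1 kb (1000 bp) of a Hox start site (TSS).

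Promoters of the 39 genes were scored by a peak within 1000 bp of an annotated TSS. WT pre-proB had 17 such Hox genes (43.6%, 95% Wilson interval 29.3% to 59.0%), where 63.3% of all protein-coding genes had a promoter peak. WT proB had 24 (61.5%, 45.9% to 75.1%) against 65.5% of all genes, and WT preB 18 (46.2%, 31.6% to 61.4%) against 61.4%. Erg KO pre-proB had 20 (51.3%, 36.2% to 66.1%) against 64.2%. In the Rescue libraries 21 (53.8%, 38.6% to 68.4%), 23 (59.0%, 43.4% to 72.9%) and 18 (46.2%, 31.6% to 61.4%) Hox genes had one at the pre-proB, proB and preB stage, against 64.5%, 64.8% and 63.1% of all genes. The Hox share was below that of all genes in each of the 7 libraries and nearest to it in WT proB. The share of all genes lay above the Hox interval in WT pre-proB and Rescue preB. It lay at the upper limit in WT preB and inside the interval in the other libraries. The 7 shares are of the same 39 genes, so they are not independent of each other. The intervals cover counting error only and treat genes as independent. Hox promoter peaks were also weaker: their median percentile was between 33.1 and 59.1, and that of promoter peaks of all genes between 86.3 and 88.8.

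**Figure D3:**
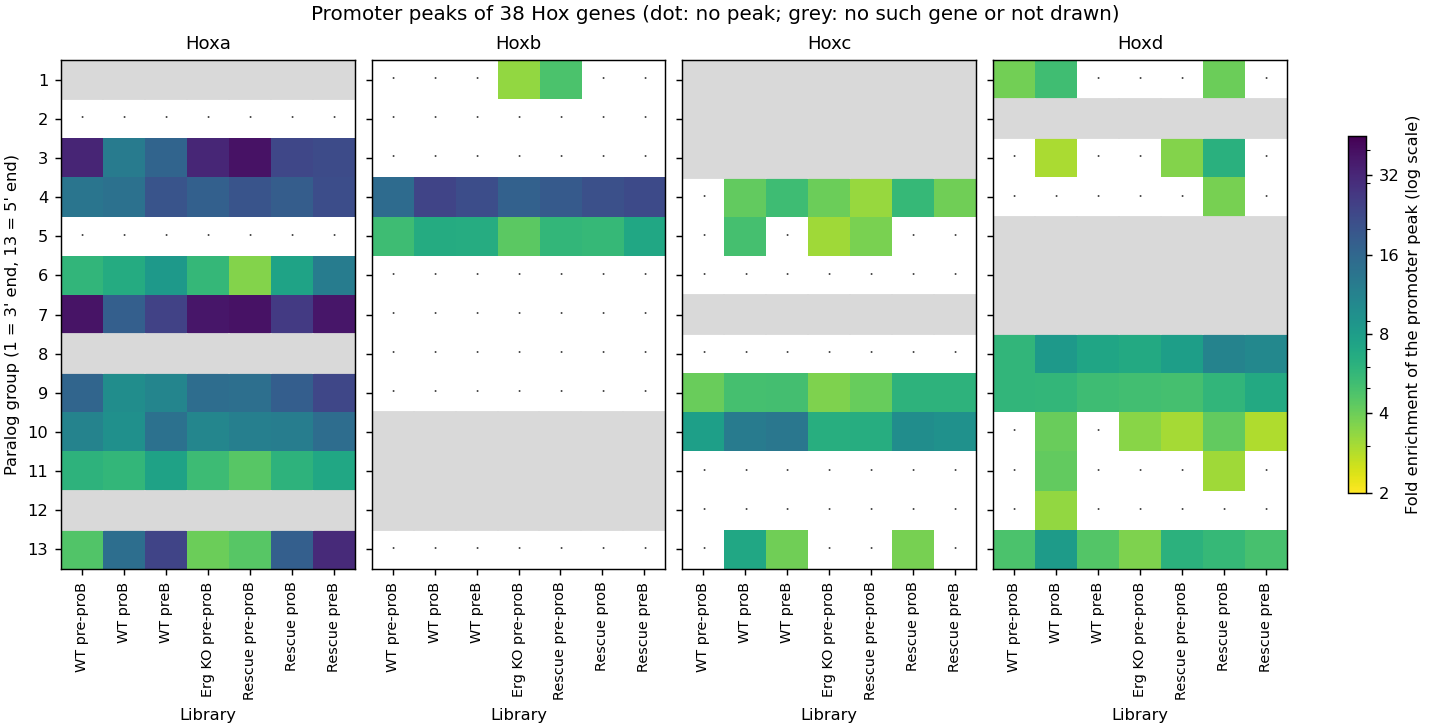
Fold of the promoter peak (colour, log scale) for 38 Hox genes, with paralog groups in rows (y axis), libraries in columns (x axis) and 1 panel per cluster. A dot is a gene without a promoter peak and grey is a number the cluster lacks or that is not drawn. In every library 8 of the 10 Hoxa genes drawn are filled, and paralog 2 is empty.

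Of the 39 Hox genes 16 had a promoter peak in all 7 libraries, where 58.7% of all protein-coding genes did. The number fell to 10 with lists of equal length or with −log10 q of at least 10, and to 5 with the strongest 38232 peaks of each list. The 16 included 8 Hoxa genes (Hoxa3, Hoxa4, Hoxa6, Hoxa7, Hoxa9, Hoxa10, Hoxa11 and Hoxa13), Hoxb4 and Hoxb5, Hoxc9 and Hoxc10, and Hoxd8, Hoxd9 and Hoxd13. Another 13 genes had none in any library: Hoxa2, Hoxa5, Hoxb2, Hoxb3, Hoxb6, Hoxb7, Hoxb8, Hoxb9, Hoxb13, Hoxc6, Hoxc8, Hoxc11 and Hoxc12. The remaining 10 varied. Paralog group 10 was open in 19 of 21 gene and library pairs, groups 4 and 9 in 21 of 28 each and group 13 in 17 of 28. Group 2 was open in 0 of 14 pairs and group 12 in 1 of 14. Hoxb6 and Hoxb8 lacked a promoter peak but had peaks further from their TSS in all 7 libraries. One at an exon of Hoxb8 had folds between 5.16 and 6.90, and one in an intron of Hoxb6 had folds between 5.86 and 9.80.

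Among the Hoxa genes open throughout, Hoxa7 and Hoxa3 had the strongest promoter peaks in the pre-proB libraries. The Hoxa7 peak, which belongs to a gene active in blood progenitors, had a fold of 38.2 at pre-proB, 17.5 at proB and 24.3 at preB in WT, 37.2 in Erg KO, and 38.8, 26.5 and 37.3 at the 3 Rescue stages. The peaks counted for Hoxa3 lie between Hoxa6 and Hoxa7, near the start of the longest Hoxa3 transcripts, and had 32.6, 12.4, 16.4, 32.1, 38.4, 23.2 and 22.1. The WT preB value comes from a neighbouring peak of the same region, which ends before the WT pre-proB and WT proB peaks start. So the 3 pre-proB libraries were close to each other at both genes, whatever their genotype. Hoxa7 and Hoxa3 were higher there than in any WT library of a later stage.

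Of the other Hoxa promoters named above, 5 did not exceed a fold of 23.1, while Hoxa13, described further on, reached 30.9 in Rescue preB. Hoxa4 had folds between 13.4 (WT pre-proB) and 21.7 (Rescue preB). Hoxa9, a driver of progenitor growth and of leukaemia, had 16.3, 9.78, 10.96, 14.8, 14.5, 17.8 and 23.1, lowest in WT proB and highest in Rescue preB. Hoxa10, which also acts in progenitors, lay between 9.42 and 14.9, Hoxa6 between 3.57 and 12.2 and Hoxa11, a gene of limb, kidney and uterus, between 4.47 and 7.45. Outside Hoxa the strongest promoter was Hoxb4, a gene that promotes self-renewal of blood stem cells, with 15.1, 23.6, 21.5, 17.0, 18.6, 21.2 and 22.3. Its 3 pre-proB values were the 3 lowest. Hoxb5, expressed in the vagal neural crest, lay between 4.40 and 7.01. In Hoxc, Hoxc10, a gene of the lumbar region, had 7.75, 12.4, 13.2, 6.41, 6.43, 9.80 and 9.28, again lowest in the 3 pre-proB libraries, and Hoxc9, which patterns thoracic motor neurons, lay between 3.66 and 6.01. In Hoxd, Hoxd8 lay between 5.82 (WT pre-proB) and 11.1 (Rescue proB), Hoxd9 between 5.004 and 6.81 and Hoxd13, the digit gene at the 5' end, between 3.66 and 8.12.

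The 10 promoters that were open in some libraries only were all weak, with folds between 2.89 and 7.02. Hoxc13, which acts in hair and nails, had a peak in WT proB (7.02), WT preB (3.95) and Rescue proB (3.79), and in none of the 3 pre-proB libraries. Hoxc4, known in mature B cells as an inducer of the gene for activation-induced deaminase, lacked one in WT pre-proB alone and had folds between 3.22 and 5.57 in the others. Hoxc5 had one in WT proB (4.98), in Erg KO (3.11) and in Rescue pre-proB (3.75). Hoxb1, a gene of the hindbrain, had one only in the pre-proB libraries without Erg, Erg KO (3.30) and Rescue (4.83). In Hoxd, WT proB and Rescue proB held most of these peaks. Hoxd11, a forearm gene, had one in those libraries only (4.25 and 3.12), and Hoxd1 had one in both (5.17 and 4.01) and in WT pre-proB (3.88). Hoxd3 had one in both (2.95 and 6.24) and in Rescue pre-proB (3.57), Hoxd4 in Rescue proB alone (3.79) and Hoxd12 in WT proB alone (3.32). Hoxd10 had one in every library except WT pre-proB and WT preB, with folds between 2.89 and 4.23. The lowest folds in the lists were 2.32 to 2.63, so the weakest of these peaks, with 13 fragments at the summit, are within few fragments of absence, while the strongest, Hoxc13 in WT proB, had 37.

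The 2 ends of the clusters differed in the number of peaks and in their height. Each peak was assigned to the Hox gene with the nearest TSS, with paralog groups 9 to 13 as the 5' end (16 genes), 5 to 8 as the middle (11 genes) and 1 to 4 as the 3' end (12 genes). The 5' end held 21, 38 and 25 peaks at the 3 WT stages, 23 in Erg KO, and 22, 29 and 30 at the 3 Rescue stages. The 3' end held 11, 16, 12, 12, 14, 15 and 10 in that order, and the middle 11 to 14. Among the strongest 38232 peaks of each list this order turned, with 27.4% of the Hox peaks at the 5' end and 47.6% at the 3' end. The 3' peaks were higher, with a median percentile between 35.5 and 70.3 in the 7 libraries, against 23.4 to 35.1 at the 5' end and 33.2 to 48.7 in the middle. The 3' values include the strong peaks between Hoxa6 and Hoxa7, because the longest Hoxa3 transcripts start there. Heights, and shares among the strongest peaks, with these peaks placed in the middle were not computed. In every library the median of the 3' end lay above that of the 5' end, with the smallest distance in WT proB and Rescue proB. The clusters were not alike: the 5' end of Hoxb (Hoxb9 and Hoxb13) held 0 peaks in all 7 libraries, while that of Hoxa held 9 to 17 and that of Hoxd 4 to 14. Each strong Hoxa peak lies in all or most libraries, so the 7 values are not independent observations of the ends.

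The region whose peak stood out most in the pre-proB libraries lay 1364 bp upstream of the Hoxd10 TSS, in an intron of the long non-coding RNA gene Gm28309 (chr2:74689991-74690560, 570 bp). Hoxd10 acts in the limb and in lumbar motor neurons. At the pre-proB stage the fold was 28.7 in WT, 25.3 in Erg KO and 27.5 in Rescue. WT proB and WT preB had no peak there, and Rescue proB and Rescue preB had folds of 6.01 and 4.33. The pre-proB summits held 147 fragments in WT (95% Poisson interval 124 to 173), 137 in Erg KO and 153 in Rescue, and the later Rescue summits 26 and 20. The region's median percentile over the 5 libraries with a peak was 79.1, the highest of the Hoxd regions. Libraries without a peak were left out of this median. The highest regions of the other 3 clusters had peaks in all 7 libraries, while this region was high in the 3 pre-proB libraries and absent from the later WT libraries. Some marker genes of other cell types had promoter peaks spread over the libraries in the same way. Cd8a of T cells had folds of 19.2, 20.5 and 30.2 in WT, Erg KO and Rescue pre-proB, 6.90 in Rescue proB and no peak in the other 3 libraries. Klk1, from the plasmacytoid dendritic cell list, had 41.7, 41.4, 47.5 and 5.12 in the same 4 libraries and none in the other 3. Other members of both lists went either way from WT pre-proB to WT proB. For example, Lck rose from 12.2 to 22.9, Cd5 from 48.1 to 59.1, Tcf4 from 60.1 to 79.9 and Spib from 48.1 to 83.3. Cd28 fell from 54.1 to 34.9 and Siglech from 101 to 18.6. Summed over the 10 T-cell markers the fold was 155 to 183 in the pre-proB libraries and 83.3 to 145 in the later ones, with Cd3d, Cd3e and Trat1 without a peak in any. Over the 10 plasmacytoid dendritic cell markers the sums overlapped, 428 to 518 and 280 to 497. The part of such cells in the Hoxd10 signal was not tested. If the source names gave the true Rescue stages, the fold of 27.5 would belong to proB, 6.01 to preB and 4.33 to pre-proB cells. The 300 bases around the summit, read from the RefSeq copy of GRCm38 on the plus strand, are shown because this region had the highest fold among WT pre-proB Hox peaks without a WT proB peak, followed by a weaker Hoxc9 region of the same kind. No base is in capitals, since neither window holds any of the motifs spelled out further on.
Hoxd10 upstream region, chr2:74690139-74690438: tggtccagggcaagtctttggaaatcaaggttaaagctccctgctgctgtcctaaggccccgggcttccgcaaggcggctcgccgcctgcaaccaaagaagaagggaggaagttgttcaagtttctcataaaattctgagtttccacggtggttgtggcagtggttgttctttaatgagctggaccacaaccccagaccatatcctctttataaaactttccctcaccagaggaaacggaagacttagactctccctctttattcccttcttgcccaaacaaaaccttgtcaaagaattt
Hoxc9 intron region, chr15:102978547-102978846: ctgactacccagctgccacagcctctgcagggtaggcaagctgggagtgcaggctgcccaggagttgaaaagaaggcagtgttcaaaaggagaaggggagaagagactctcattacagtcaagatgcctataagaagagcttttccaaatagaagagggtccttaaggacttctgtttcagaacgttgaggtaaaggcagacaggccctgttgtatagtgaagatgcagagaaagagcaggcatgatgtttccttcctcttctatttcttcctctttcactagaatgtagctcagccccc

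The Hoxc9 region lies in an intron at chr15:102978539-102979042, 504 bp. At pre-proB its fold was 7.95 in WT, 9.16 in Erg KO and 8.40 in Rescue. Rescue proB and preB had 4.68 and 3.51, and WT proB and preB had no peak. The remaining region with peaks in all 3 pre-proB libraries and in neither later WT library, inside Haglr near Hoxd1 (chr2:74753149-74753474), had 3.49, 3.48 and 5.18. These 3 of 82 Hox regions are 3.66%, against 17.7% of all regions of the genome with this pattern. Conversely, 8 Hox regions had a peak in WT proB alone, 9.76% against 6.48% of all regions, and 5 had one in WT proB and Rescue proB alone, 6.10% against 0.861%. The 13 regions of these proB patterns had WT proB folds between 3.14 and 4.98. They were 6 Hoxd, 4 Hoxc, 2 Hoxb regions and 1 Hoxa region, with Hoxd10, Hoxd11, Hoxd12 and Hoxd13 all among the nearest genes. WT proB had a background of 4.42 fragments and Rescue proB the lowest of all, 3.49.

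From WT pre-proB to WT proB, Hox peaks were mostly kept and many were added. Of 45 WT pre-proB Hox peaks, 6 had no WT proB peak (13.3%, Wilson interval 6.26% to 26.2%), where 34.1% of the whole list had none. Of 68 WT proB Hox peaks, 26 had no WT pre-proB peak (38.2%, 27.6% to 50.1%), where 31.9% of the whole list had none. By region, 24 were added: 9 in Hoxc, 9 in Hoxd, 3 in Hoxa and 3 in Hoxb. Their highest-ranked peaks were at the Hoxc13 promoter (7.02), in an exon of Hoxd10 (4.80), downstream of Hoxa13 (3.88) and in an intron of Hoxb6 (3.69). Regions lost were the Hoxd10, Hoxc9 and Haglr ones above and 3 weak ones, of which 1 in Hoxa7 had a fold of 3.49.

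From WT proB to WT preB, 26 of 68 Hox peaks had no WT preB peak (38.2%, 27.6% to 50.1%), against 26.7% of the whole list. Of 48 WT preB Hox peaks, 6 had no WT proB peak (12.5%, 5.86% to 24.7%), against 10.7%. Hoxd went from 21 to 6 peaks across this step and Hoxa from 25 to 27. The WT preB list was the shortest and its background of 3.56 fragments was below the 4.42 of WT proB. With each list cut to its strongest 76465 peaks, Hoxd still went from 15 to 6 peaks and Hoxa from 19 to 27.

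**Figure D4:**
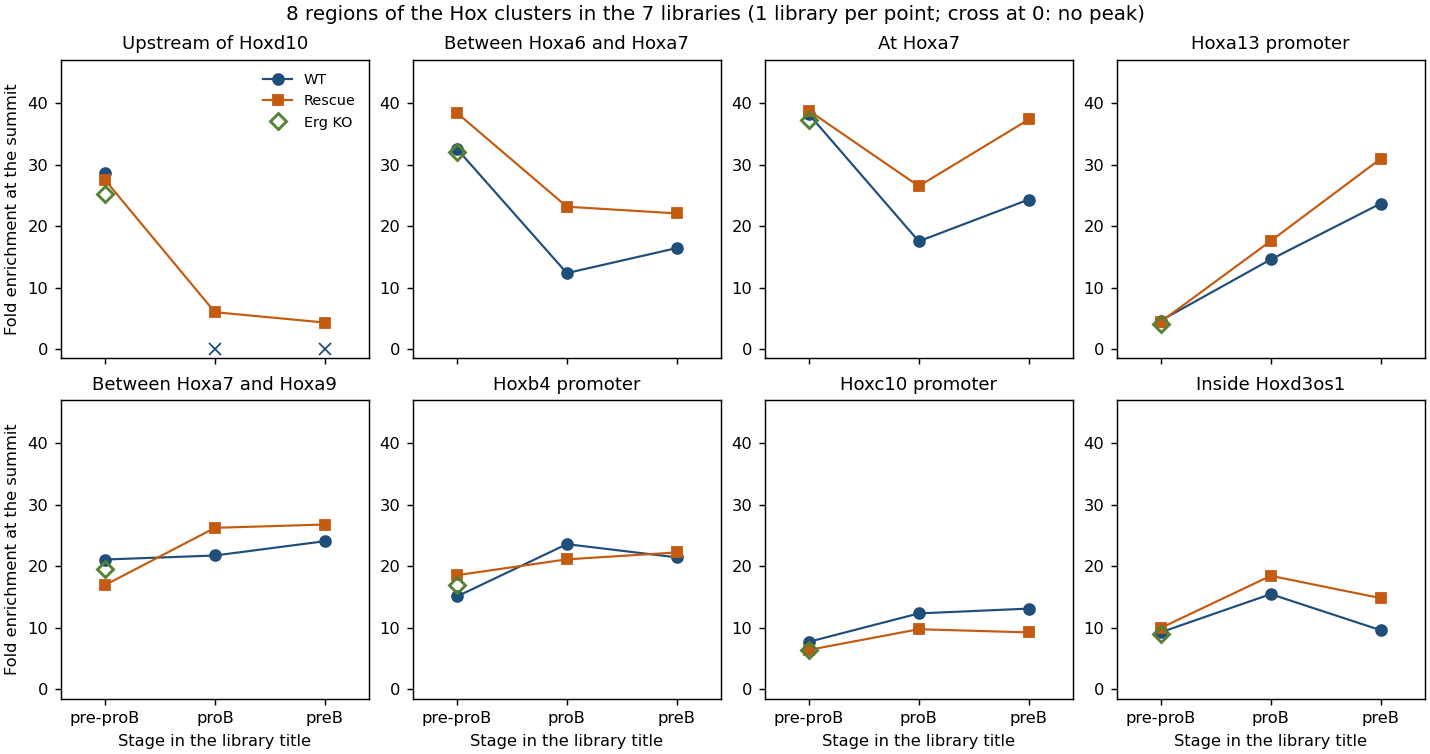
Fold at the summit (y axis) of 8 Hox regions at the stages in the library titles (x axis), with WT as circles, Rescue as squares and Erg KO as an open diamond. Each point is 1 library, lines join libraries of a genotype and a cross at 0 means no peak. The Hoxd10 region falls from 28.7 to no peak in WT, and the Hoxa13 promoter climbs from 4.65 to 23.7.

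Among 37 Hox regions with a peak in both WT pre-proB and WT proB, 1 was at least 2 times higher in WT proB and 2 were at least 2 times lower, where 13.8% and 16% of all regions were. The higher one was the Hoxa13 promoter (chr6:52259193-52261195), a gene of digits and genital tract at the very 5' end of Hoxa. In WT its fold was 4.65 at pre-proB, 14.6 at proB and 23.7 at preB. Erg KO had 4.03, and Rescue had 4.47, 17.6 and 30.9 at the 3 stages. The 3 pre-proB values and the 4 later values thus did not overlap. The WT proB fold was 3.13 times that of WT pre-proB (exact interval from the fragment counts 1.96 to 5.18), and WT preB was 1.62 times WT proB (1.203 to 2.20). The 250 bases before the Hoxa13 TSS, on the minus strand as transcribed, are shown for their composition, 80% G or C with 35 CpG and an observed over expected CpG ratio of 0.875, the make-up of a CpG island. They come from RefSeq GRCm38 and hold none of the motifs searched.
Hoxa13 upstream, chr6:52260881-52261130: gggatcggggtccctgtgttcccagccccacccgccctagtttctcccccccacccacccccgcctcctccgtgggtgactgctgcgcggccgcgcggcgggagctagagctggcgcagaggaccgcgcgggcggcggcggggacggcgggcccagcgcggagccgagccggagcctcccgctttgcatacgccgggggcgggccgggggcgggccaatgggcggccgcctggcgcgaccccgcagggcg

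The lower ones were the region between Hoxa6 and Hoxa7 (chr6:52211287-52213934) and the Hoxa7 promoter (chr6:52216780-52218443). The former was 2.63 times higher in WT pre-proB than in WT proB (1.97 to 3.55) and the latter 2.18 times (1.70 to 2.81). Hoxa13 and the Hoxa6 to Hoxa7 stretch thus went opposite ways between these WT libraries, and the other Hoxa promoters of the 5' end, Hoxa9, Hoxa10 and Hoxa11, did not share the higher WT proB value of Hoxa13. The Hoxa7 region was the highest of the whole cluster, with a median percentile of 84.1. A neighbour between Hoxa7 and Hoxa9 (chr6:52221306-52222615) had folds of 21.1, 21.8, 24.1, 19.6, 17.0, 26.3 and 26.8, without such a step. Between WT proB and WT preB, 0 of 38 Hox regions were 2 times higher and 0 were 2 times lower, against 5.18% and 8.53% of all regions. Over the 37 Hox regions the median log2 ratio of WT proB to WT pre-proB was 0.12, and it was -0.07 over the 59510 regions of the genome in both lists.

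The comparison of WT with Erg KO at the pre-proB stage asks what loss of Erg does to these clusters in the cells where both genotypes exist. The strong regions had nearly the same fold in both. At the Hoxd10 region Erg KO had 0.881 times the WT fold (exact interval 0.694 to 1.12), at the Hoxa7 promoter 0.974 times (0.797 to 1.19), between Hoxa6 and Hoxa7 0.985 times (0.792 to 1.22), at Hoxb4 1.13 times (0.825 to 1.54) and at Hoxa13 0.866 times (0.463 to 1.61). Of 40 Hox regions with a peak in both, 0 were 2 times higher in Erg KO and 0 were 2 times lower, and in the whole genome 0.28% and 0.27% were. The 40 ratios ran from 0.756 to 1.39. Their median log2 was -0.04, against 0.06 over the 84912 regions of the genome. Changes below the width of these intervals, and differences between animals, were not measurable with 1 library of each genotype.

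**Figure D5:**
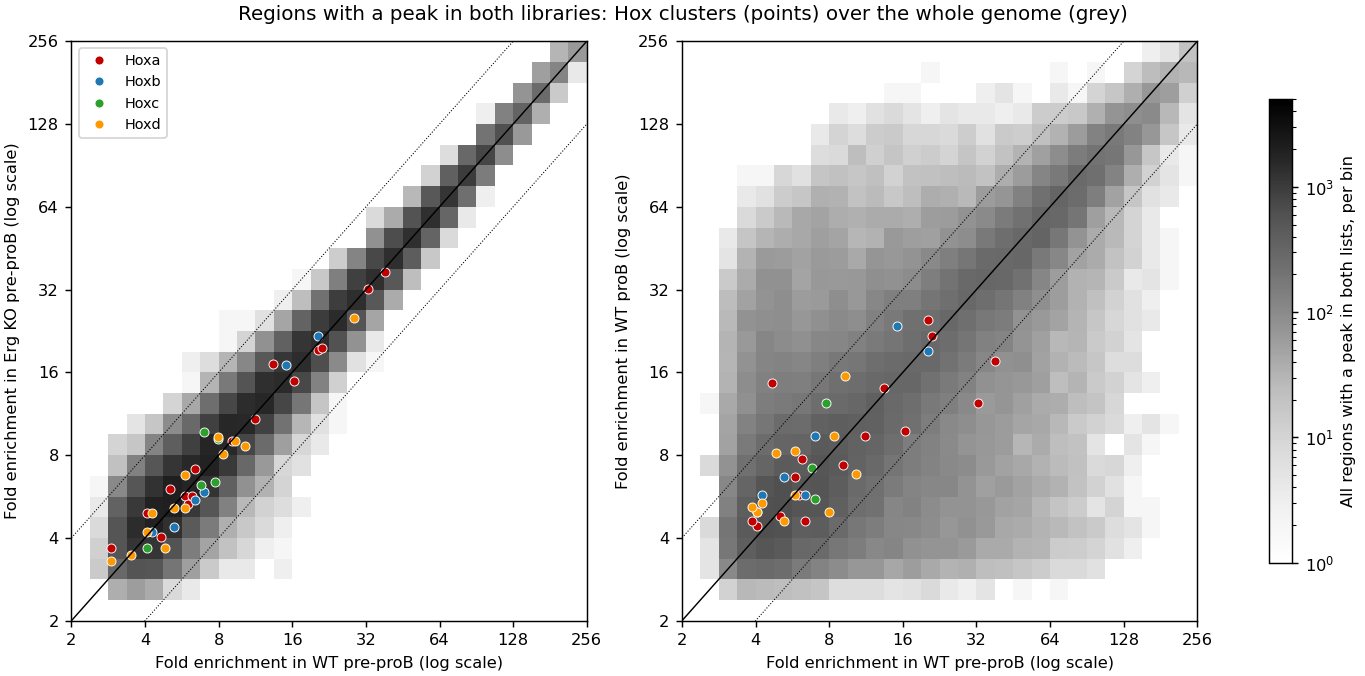
Fold of regions with a peak in both libraries, Hox regions as points coloured by cluster over all regions of the genome in grey (number per bin, log scale), WT pre-proB on the x axis and Erg KO pre-proB (left) or WT proB (right) on the y axis, all axes log. The solid line is equality and the dotted lines are 2 times higher and lower. On the left the 40 Hox points lie inside the dotted lines, and on the right 3 of 37 lie outside.

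A few weak peaks were found in 1 of these genotypes only. Of 45 WT pre-proB Hox peaks, 4 had no Erg KO peak (8.89%, 3.51% to 20.7%), against 6.88% of the whole list, and of 48 Erg KO peaks 8 had no WT peak (16.7%, 8.70% to 29.6%), against 13.6%. The Erg KO list was also longer, 102605 against 95662 peaks. By region, 3 were in WT only: an exon of Hoxa11 (3.88), an intron of Hoxa7 (3.49) and the Hoxd1 promoter (3.88). In Erg KO only there were 6, of which the highest lay 2730 bp from the Hoxb8 TSS with a fold of 6.41 and the others were at Hoxb1, Hoxc4, Hoxc11, Hoxc5 and Hoxd10, with folds between 3.11 and 4.03. The region near Hoxb8 had peaks in the other 5 libraries as well, with folds between 3.51 (WT proB) and 6.19 (Rescue preB). It lacked one in WT pre-proB alone. The Hoxa11 exon region also lacked a peak in Rescue pre-proB and had folds between 3.88 and 7.45 in 5 libraries, while another peak near the Hoxa11 TSS was present in all 7.

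Rescue cells lack Erg as Erg KO cells do, and carry a heavy chain, so their libraries show the later stages without Erg. At the pre-proB stage, 5 of 45 WT Hox peaks had no Rescue peak (11.1%, 4.84% to 23.5%; whole list 5.88%) and 9 of 49 Rescue Hox peaks had no WT peak (18.4%, 9.98% to 31.4%; whole list 15.6%). At proB the numbers were 12 of 68 (17.6%, 10.4% to 28.4%; whole list 20.6%) and 7 of 57 (12.3%, 6.08% to 23.3%; whole list 19.8%). At preB they were 5 of 48 (10.4%, 4.53% to 22.2%; whole list 8.02%) and 12 of 52 (23.1%, 13.7% to 36.1%; whole list 17.9%). In all 3 stages, on the WT side and the Rescue side alike, the whole-list share lay inside the interval of the Hox share.

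Few Hox regions differed 2 times in fold between Rescue and WT. At pre-proB 1 of 38 was higher in Rescue and 0 lower (whole genome 0.537% and 0.275%), a weak region in an intron of Hoxd11 with 4.07 in WT and 8.94 in Rescue. At proB 1 of 51 was higher and 0 lower (5.32% and 6.52%), at Hoxd3 with 2.95 and 6.24. At preB 4 of 38 were higher and 0 lower (3.05% and 0.885%), all in the 5' part of Hoxa. These were the Hoxa9 promoter with 10.96 in WT and 23.1 in Rescue (2.11 times, exact interval 1.498 to 3.005), an intron of Hoxa9 with 3.29 and 6.81, an exon of Hoxa10 with 3.07 and 7.22, and a region at Hoxa11 with 3.07 and 6.60. The last 3 are within a few fragments of the calling limit in WT preB. The median log2 ratio of Rescue to WT preB was 0.20 over the 38 Hox regions and 0.10 over 66190 regions of the genome. These calls depend on the stage of the Rescue libraries, which titles and source names give differently.

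Within Rescue, by title, the largest ratios were at the Hoxa13 promoter and the Hoxd10 region. From pre-proB to proB, 3 of 40 Hox regions were at least 2 times higher and 3 at least 2 times lower, where 6.87% and 25% of all regions were. The Hoxa13 promoter was 3.94 times higher (2.48 to 6.45), a region between Hoxc9 and Hoxc8 2.24 times and the Hoxa6 promoter 2.06 times. The Hoxd10 region was 4.58 times lower (3.03 to 7.17), a region upstream of Hoxd13 2.07 times and a region near Hoxd8 2.06 times. The region upstream of Hoxd13 had folds of 10.3, 6.83, 5.48, 8.61, 11.1, 5.35 and 4.54, so its 3 pre-proB values were the 3 highest. From Rescue proB to preB, 0 of 44 were 2 times higher and 0 were 2 times lower, against 3.28% and 3.19%. Over the 40 regions of the first step the median log2 ratio was 0.16, and it was -0.30 over 67568 regions of the genome.

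The windows have an edge, and 1 strong Hoxb peak sat on it. The region between Hoxb5 and Hoxb4 (chr11:96311018-96312238) was the highest of Hoxb, with folds of 20.4, 19.2, 26.3, 21.6, 21.1, 23.2 and 28.7 and a median percentile of 75.9. Its peaks reached into the 5 kb window by 104 bp in Erg KO pre-proB, 72 bp in WT preB, 42 bp in Rescue preB and 4 bp in WT proB. They lay outside by 72 bp in Rescue proB, 126 bp in Rescue pre-proB and 146 bp in WT pre-proB. It is therefore missing from the Hox peak counts of those 3 libraries although all 7 have the peak. The next peaks outside lay 1054 bp or more away, upstream of Hoxd13, with folds between 4.68 and 10.01 in the 7 libraries.

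Hox regions were rich in G, C and CpG. Around the summit (300 bases) the median was 56.7% G or C and an observed over expected CpG ratio of 0.641, against 48.3% and 0.212 over all regions. Words of 4 motif families were searched on both strands. A CTCF core (CNAGGGGGC, CNAGGTGGC, CNAGAGGGC or CNAGATGGC) was in 12 of 82 Hox windows (14.6%), against 9.95% of all regions. Of the 31 Hox regions with a peak in all 7 libraries 7 had it (22.6%), against 15.3% of all regions in all 7. An ETS word (ACAGGAAG or CCGGAAGT, the family of Erg) was in 4 windows (4.88%), against 8.80%. They included windows near Hoxc11, Hoxd13 and Hoxa7, of which the Hoxd13 one alone had peaks in all 7 libraries. A HOX-PBX word (TGATTNAT) was in 1 (1.22%), against 3.11%, and a MEIS word (CTGTCAN) in 9 (10.98%), against 23.2%. In the promoters that RefSeq supplies for 22 of the 39 genes, 24 in all, CTCF and ETS words were in 0, HOX-PBX words in 2 (Hoxa2 and Hoxd11) and MEIS words in 2 (Hoxa2 and Hoxa3), against 7.82%, 7.31%, 3.22% and 19.1% of 32851 promoters. A match is a stretch of letters and not evidence of binding, and a window without one says nothing about the factor.

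Of the 12 matches with a CTCF core 9 lay outside coding exons, and 5 of these 9 are shown as examples with 25 bases on either side, so that the letters can be read next to the peak values. Capitals mark the core, and all are on the plus strand of GRCm38 (RefSeq).
Near Hoxb8, chr11:96278926-96278984: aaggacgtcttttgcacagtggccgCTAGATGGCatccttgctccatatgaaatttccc
Before Hoxc13, chr15:102920743-102920801: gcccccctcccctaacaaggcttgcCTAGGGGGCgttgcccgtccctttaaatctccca
Before Hoxc10, chr15:102966550-102966608: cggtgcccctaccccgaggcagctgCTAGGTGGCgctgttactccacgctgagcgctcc
Between Hoxc9 and Hoxc8, chr15:102987571-102987629: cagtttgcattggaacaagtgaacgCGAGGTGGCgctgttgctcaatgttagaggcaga
Downstream of Hoxa13, chr6:52257099-52257157: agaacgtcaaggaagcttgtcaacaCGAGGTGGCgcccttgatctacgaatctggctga

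The Hoxc10 promoter region holding the third of these was the highest of Hoxc, at a median percentile of 53.1. The region between Hoxc9 and Hoxc8 had folds of 6.78, 7.20, 8.99, 6.23, 4.47, 10.02 and 8.05, and the one downstream of Hoxa13 had 6.20, 7.75, 8.55, 5.68, 5.004, 7.57 and 9.49. These 3 were peaks in all 7 libraries, while those near Hoxb8 and before Hoxc13 were peaks in 6 and 3.

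Of 18 long non-coding RNA genes within the cluster spans, from the first to the last Hox gene, 3 had a promoter peak in all 7 libraries (Gm28793 and Hoxd3os1 among them) and 9 in none. The span of Hoxb includes a stretch between Hoxb13 and Hoxb9 that lies outside the windows. The shares over all long non-coding RNA genes were not computed, so these counts are description only. A peak inside Hoxd3os1, antisense to Hoxd3, had folds of 9.30, 15.5, 9.64, 8.98, 10.01, 18.5 and 14.9, highest in both proB libraries. Its median percentile over the 7 libraries was 55.3. In Hoxd only the Hoxd10 region had a higher one, taken over the 5 libraries where that region had a peak. Haglr, which starts between Hoxd3 and Hoxd1, had a promoter peak with 7.95, 9.34 and 9.47 in WT, Erg KO and Rescue pre-proB, 4.98 and 4.90 in WT and Rescue proB, and none at preB. By the titles, the values of the 3 stages did not overlap.

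The cluster spans also hold 7 microRNA genes, of which Mir196a-1 lies outside the windows. Mature microRNAs are shown with bases 2 to 8, the seed that pairs with targets, in capitals, for the 2 families whose members share a seed (RefSeq).
mmu-miR-196b-5p: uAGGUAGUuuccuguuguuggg
mmu-miR-196a-5p: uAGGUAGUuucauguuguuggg
mmu-miR-10a-5p: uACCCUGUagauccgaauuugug
mmu-miR-10b-5p: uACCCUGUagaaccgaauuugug

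The miR-196 pair share the seed AGGUAGU and the miR-10 pair the seed ACCCUGU. Mir196b, next to Hoxa9, had a promoter peak in all 7 libraries, with 5.04, 4.80, 3.29, 6.05, 7.51, 6.90 and 6.81. Mir10a, next to Hoxb4, was within reach of the Hoxb4 promoter peak in WT preB, Rescue pre-proB and Rescue preB. Mir10b, next to Hoxd4, was likewise within reach of the Hoxd4 promoter peak in Rescue proB alone (3.79). Mir615, within Hoxc5, was within reach of the Hoxc5 promoter peak in WT proB alone (4.98). The other 3 microRNA genes, the 2 copies of Mir196a among them, had none. The shares over all microRNA genes were not computed.

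The partners and regulators of the Hox proteins were open throughout. All 9 genes for Hox cofactors of the Meis, Pbx and Pknox families had a promoter peak in all 7 libraries, as did all 6 Trithorax-group genes (Kmt2a, Men1, Wdr5, Ash2l, Rbbp5 and Dot1l) and all 10 Polycomb-group genes such as Ezh2, Suz12, Bmi1 and Cbx7. Of all protein-coding genes 58.7% did. Meis1 had folds of 63.6, 55.6, 53.9, 73.1, 68.6, 62.6 and 79.02, each above the Hoxa7 promoter peak of its library. Among the Polycomb subunits, Ezh2 lay between 65.0 and 81.5, Eed between 73.7 and 109 and Suz12 between 35.5 and 50.6.

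Outside the clusters, the nearest genes on the 2 sides were unlike at Hoxa and Hoxd. Skap2 beyond the 3' end of Hoxa, an adaptor of immune signalling, had folds between 37.2 and 65.0, while Evx1 beyond Hoxa13 had no promoter peak. Beyond Hoxb13 Ttll6 had none, and Skap1 beyond Hoxb1 had one in 3 libraries (3.40 to 6.28). Beside Hoxc, Calcoco1 had 57.0 to 90.4, and Smug1 had 43.2 to 63.8 in 4 libraries, WT preB and those of Rescue. In the others Smug1 had no peak within 1000 bp of a TSS, and peaks further out were not examined. Mtx2 beyond Hoxd1 had 23.4 to 41.1, and Evx2 beyond Hoxd13 had 3.12 to 4.83 in 5. Of the 6 ParaHox genes, relatives of the Hox genes that lie elsewhere (Cdx1, Cdx2, Cdx4, Gsx1, Gsx2 and Pdx1), 1 (Rescue pre-proB) to 4 (WT proB and Rescue proB) had a promoter peak, with folds up to 12.9, where 61.4% to 65.5% of all genes had one.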

How the data were processed

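ATAC-seq peak lists of 7 mouse libraries were analysed. Per the study's methods and the submitters' processing notes, reads were processed with CASAVA 1.8.2, aligned to mm10 with Bowtie2, handled with Picard, and peaks were called with MACS2, 1 list per library without pooling. For the other versions, the options, duplicate removal and any control library, the answer is not given in the sources used here. Sonication is stated in the methods but Tn5 in the labels, so the fragmentation, which affects peak width and number, is unclear.

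The deposited fold is a ratio of summit pileup to background pileup. Of each summit the authors deposited a −log10 q and a −log10 p, and the score the authors deposited is derived from −log10 q. Folds of a library are whole multiples of 1 step, and with the pseudocount of 1 that MACS2 adds this gave its background pileup (3.49 to 4.60) and the fragments at each summit. Read totals were not used, so depth is known only through this background. The highest background is 1.32 times the lowest.

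Genes and TSS came from GENCODE M21 and bases from RefSeq GRCm38.p6. A shared peak overlapped by at least 1 bp. Hox members, gene and marker lists, and the motifs were chosen with earlier results of these data known. Some items are not reported here. Genes were named by a rule: the Hox genes, the highest region of each cluster, the highest-ranked unshared regions, flanking genes and the listed regulators. Shares carry 95% Wilson intervals and fragment ratios exact Clopper-Pearson intervals, and single pileups exact Poisson intervals. They cover counting error only. Python 3.11.15, numpy 2.4.6, pandas 2.3.3, scipy 1.17.1, pysam 0.24.0, samtools 1.23.1 and matplotlib 3.10.9 were used, and overlap, merging and fold rules were tested on simulated data. Alternatives were lists of equal length, a stricter threshold, other windows, another overlap, the other Rescue label and other definitions of the cluster ends.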

Additional observations from a re-analysis of the deposited data

How the results depend on the processing

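No paired analysis was possible because each group has 1 library and no result comes from a test. Of 127 recomputed summary values, 86 stayed close to the value reported and 41 did not. A share was close inside the interval of the reported share, and a count was close within 1.5 times the reported count. The rule for counts was also used for single libraries, for clusters in single libraries and for the libraries open at each gene. Of these counts 278 stayed and 127 moved. The counts follow the list length and threshold: with the strongest 38232 peaks of each list 84 Hox peaks remained over the 7 libraries, 9 to 16 each, with 54 gene and library pairs with a promoter peak and 5 Hox genes with one in all 7. Hoxa then held 65.5% of the peaks, Hoxc 5.95% and Hoxd 13.1%, and the order of the ends turned, with 27.4% at the 5' end and 47.6% at the 3' end. Unshared shares rested on 9 to 16 peaks: 0% for WT pre-proB against Erg KO and 0% the other way, 0% for WT against Rescue at pre-proB, 0% the other way, 0% for WT proB without a Rescue peak and 37.5% for Rescue proB without a WT peak, 27.3% gained from WT pre-proB to proB, and 9.09% lost and 33.3% gained from proB to preB.

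With −log10 q of at least 10, 231 peaks remained, 10 Hox genes had a promoter peak in all 7, Hoxc held 12.6%, the 5' end 42.0% and the middle 30.7%, WT pre-proB without Erg KO was 3.33% and WT proB gains were 25%. With lists of 76465 peaks, 10 genes were open in all 7, 6.25% of WT pre-proB peaks were lost to proB and 24.5% of proB peaks to preB, and 13.3% of Rescue preB peaks had no WT peak. With gene bodies only, Hoxc held 21.4% and Hoxd 22.1%, 3.03% of WT preB peaks were gained and 3.03% had no Rescue peak. With a reciprocal overlap of 50%, 33.3% were lost and 54.4% gained from WT pre-proB to proB, and 32.4% of WT proB and 27.1% of WT preB peaks had no Rescue peak. By the other Rescue label, 36.8% of WT proB peaks had no Rescue peak. With each cluster split at its midpoint, 70.6% of peaks were on the 5' side and 29.4% on the 3' side. An assignment to the nearest coding start, chosen after seeing the data because the annotated Hoxa3 start lies between Hoxa6 and Hoxa7, put 30.5% in the middle and 18.0% at the 3' end. The causes were not tested beyond what each setting changes by construction. Leaving out a library was not possible with 1 per group.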
